A study of Mus musculus with 4 samples.

Results

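Inflammasomes and gasdermin pores were followed through 7 genes: the sensors Nlrp3, Nlrc4 and Aim2, the adaptor Pycard, the caspases Casp1 and Casp4, and the pore former Gsdmd. They were chosen by symbol, and all 7 were found among the 32285 genes of the deposited matrices. The cells are leukocytes from mouse B16-F10 melanomas, an established pigmented tumour line, sorted live as CD45+ and read by 5′ droplet single-cell RNA sequencing. There were 4 groups with 1 library each, and every library pooled tumours of 6 mice. Control mice received dilution buffer into the tumour and IgG antibody intravenously. The CD40 group received CD40 antibody into the tumour and the same IgG, the PD1 group received buffer into the tumour and PD1 antibody intravenously, and the combination group received both CD40 and PD1 antibodies. All mice carried tumours, were treated on days 8 and 11, and gave tumours on day 14. The sources used here state no strain, sex or age of the mice.

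An inflammasome is a protein platform that myeloid cells build in the cytosol when a sensor meets a danger or microbial signal. NLRP3 responds to membrane damage and ion fluxes, NLRC4 to bacterial flagellin and secretion proteins handed over by NAIP receptors, and AIM2 to double-stranded DNA. The adaptor ASC, encoded by Pycard, links sensors to caspase-1, which matures interleukin-1 beta and interleukin-18. Mouse Casp4, also known as caspase-11, binds bacterial lipopolysaccharide directly. Both caspases cut gasdermin D, and its freed end forms pores through which the cytokines leave and the cell can die by pyroptosis. Transcript levels, as measured here, do not report assembly or cleavage.

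After filtering, 34655 cells were kept, between 7736 and 9681 per library, with a median of 11390.5 to 14663 UMIs per cell. Of these, 15861 fell in 1 of 8 myeloid gates, set on marker genes that include no member. Classical monocytes numbered 1001, 894, 1778 and 1119 in control, CD40, PD1 and combination tumours, the order kept for all values below. Non-classical monocytes numbered 330, 887, 728 and 832, and macrophages 1435, 1358, 1491 and 720. Neutrophils numbered 218, 475, 183 and 1158, with a median of 2131, 3862, 2409 and 4661.5 UMIs per cell. These 4 classes could be compared in every library. Dendritic cells could not, since cDC1 cells numbered 162, 6, 124 and 19. The label calls the cell type melanoma, whereas only 14, 19, 22 and 10 kept cells passed the melanoma gate (Pmel, Dct, Tyrp1, Mlana). Across libraries, 675 of 36007 distinct barcodes occurred in at least 2.

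Levels are counts per 1e6 UMIs (CPM) of a class in a library, so they describe a gene's share of that class's RNA. Brackets hold exact 95% intervals, which cover counting error only. With 1 library per group there is no replicate check and no test, and any difference between libraries holds for these pools.

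Most UMIs of the sensors Nlrp3 and Nlrc4 lay in gated myeloid cells, with 68.8% to 73.9% for Nlrp3 and 70.2% to 80.4% for Nlrc4 in the 8 gates. Other mononuclear phagocytes, which met none of these gates, held a further 12.8% to 21.2% and 9.79% to 15.3%. Aim2 was spread more widely. Its share in the 8 gates was 52.5%, 51.3%, 49.2% and 40.2%, and T cells held 23.2%, 28.5%, 23.7% and 40.1% of it. T cells made up 21.9%, 28.7%, 20.79% and 37.55% of kept cells. All such shares depend on the number and depth of a class's cells as well as on its level of the gene. Neutrophils held 4.25%, 8.97%, 2.47% and 36.0% of all Nlrp3 UMIs. They held 1.04%, 5.70%, 0.551% and 17.8% of all Casp4 UMIs. For both genes the combination library was the highest, and it also held the most neutrophils.

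**Figure D1:**
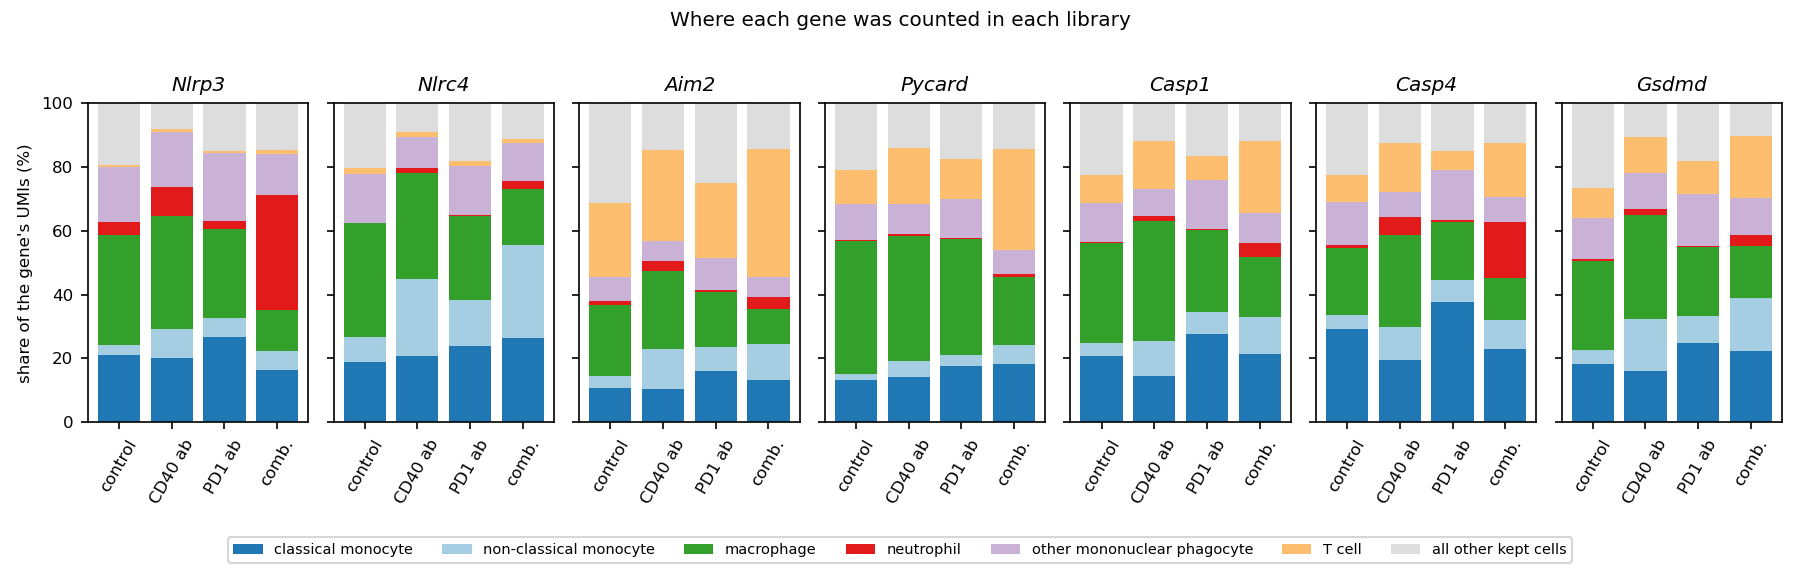
Share of each gene's UMIs (percent, y axis) found in each gated class, as stacked bars for each of the 4 libraries (x axis), with 1 panel per gene. Neutrophils take 36.0% of Nlrp3 and 17.8% of Casp4 in the combination library, against at most 8.97% and 5.70% in the others.

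Nlrp3 spans chr11:59541568-59566956 on the plus strand (GRCm38, GENCODE vM21). In neutrophils it stood at 218 [184, 256], 137 [123, 152], 182 [151, 218] and 440.4 [424, 457] CPM. These were its highest levels in each library, and the combination library was the highest of the 4. Classical monocytes held 59.4, 52.7, 58.8 and 64.5 CPM, non-classical monocytes 37.2, 35.4, 43.9 and 41.9 CPM, and macrophages 31.4, 26.0, 36.8 and 38.5 CPM. The ranges of neutrophils, classical monocytes and non-classical monocytes over the libraries did not overlap, whereas those of non-classical monocytes and macrophages did. T cells, taken as a class with little NLRP3, held 1.04, 1.08, 1.16 and 1.68 CPM. With every cell thinned to 1000 UMIs, 19.9%, 13.1%, 17.4% and 30.2% of neutrophils had an Nlrp3 UMI, against 0.119%, 0.0450%, 0% and 0.141% of T cells, whose median depth was 7104, 12102, 9458 and 12659.5 UMIs. The thinned neutrophils were 206 of 218, 472 of 475, 178 of 183 and 1154 of 1158. Among thinned T cells, 0 of 2012 allows a share of up to 0.183%. Unthinned, the shares were 37.2%, 36.0%, 33.3% and 63.0% of neutrophils and 0.826%, 0.943%, 0.994% and 1.40% of T cells. Mature dendritic cells, counted where at least 50 cells were present, held 2.07 CPM in the control and 2.28 CPM in the PD1 library, close to the T cell level.

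The direction of the CD40 antibody difference for Nlrp3 in neutrophils was opposite in the 2 comparisons that share no library. The log2 ratio of CD40 to control was -0.67 [-0.95, -0.38], and that of combination to PD1 was 1.27 [1.01, 1.55], a 2.42-fold higher level. PD1 against control gave -0.26 [-0.62, 0.10]. The class ratios of monocytes and macrophages stayed between -0.27 and 0.24 in these 3 comparisons, all within 1.5-fold. Clusters compared one by one, as set out beside Nlrc4, did not all share these small ratios. In non-classical monocytes Nlrp3 was past 1.5-fold lower in the 1 cluster for CD40 against control [-1.76, -0.27]. It was lower in 3 of 3 for combination against PD1, from -0.63 to -0.23, and the intervals at -0.37 and -0.23 included 0. Classical monocyte clusters went both ways, from -1.25 to 0.65 and from -0.54 to 0.38 in these 2 comparisons.

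Nlrc4 (chr17:74425438-74459142, minus strand) was highest in non-classical monocytes, which held 26.0, 34.7, 29.3 and 35.7 CPM. Classical monocytes held 14.8, 19.9, 14.5 and 17.5 CPM and macrophages 9.03, 9.06, 9.64 and 8.70 CPM. The 3 ranges did not overlap. Neutrophils had only 2, 22, 5 and 35 UMIs of Nlrc4, or 2.95, 8.46, 7.53 and 5.35 CPM, while T cells held 0.308 to 0.931 CPM. After thinning, 3.03%, 3.16%, 2.75% and 2.64% of non-classical monocytes had an Nlrc4 UMI, against 0% to 0.0497% of T cells, while the unthinned shares were 18.2%, 30.3%, 22.3% and 34.3%. In both monocyte classes the CD40 and combination libraries were higher than their partners. The log2 ratios were 0.43 [0.16, 0.70] and 0.27 [0.05, 0.49] in classical and 0.41 [0.06, 0.79] and 0.29 [0.04, 0.54] in non-classical monocytes, none past 1.5-fold. Clusters with at least 30 gated cells in both libraries were also compared one by one, an analysis added after the class values were seen. In the CD40 antibody comparisons every interval for Nlrc4 in classical monocyte clusters included 0. In classical monocytes Nlrc4 was higher in 6 of 6 clusters for CD40 against control, by 0.03 to 0.62, and in 3 of 4 for combination against PD1, from -0.45 to 0.44. In non-classical monocytes it was 0.03 in the 1 cluster for CD40 against control and lower in 2 of 3 for combination against PD1, at -0.57, -0.45 and 0.35. The higher level in non-classical monocytes for combination against PD1 was thus not shared by most of their clusters. The annotated gene CT033749.1 overlaps Nlrc4 on the same strand, so reads in the overlap may not be separable.

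Aim2 (chr1:173350879-173466040, plus strand) was found in myeloid cells and lymphocytes alike. Non-classical monocytes held 84.1, 109.5, 99.4 and 98.5 CPM, neutrophils 108, 107, 81.3 and 55.8 CPM, classical monocytes 56.5, 60.3, 65.6 and 63.0 CPM, and macrophages 38.5, 40.6, 41.8 and 39.0 CPM. T cells held 83.0, 76.1, 74.8 and 66.2 CPM and NK cells 106, 87.8, 106 and 82.4 CPM. The T cell values lay within the span of the 4 myeloid classes, as did those of NK cells except in the PD1 library, where NK cells were above all 4. Macrophages were the lowest of the 4 myeloid classes in every library. In neutrophils the combination library was below PD1 by a log2 ratio of -0.54 [-0.96, -0.10], within 1.5-fold, while CD40 and control did not differ beyond counting error at -0.01 [-0.39, 0.38]. The median of all genes for combination against PD1 was -0.52 there, and relative to it Aim2 stood at -0.03. In the 2 neutrophil clusters compared the Aim2 ratio was 0.23 [-0.93, 1.56] and -1.08 [-1.67, -0.42]. Cadm3 overlaps Aim2 on the other strand, and whether counting used the strand is not given in the sources.

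The adaptor gene Pycard (chr7:127989708-127993867, minus strand) was highest, among the 4 myeloid classes, in classical monocytes and macrophages. Classical monocytes held 366, 443, 361 and 435 CPM and macrophages 367, 345, 449 and 386 CPM, and these ranges overlapped. Non-classical monocytes held 209.5, 239, 231 and 265 CPM and neutrophils 108, 139.6, 91.8 and 85.5 CPM, each range below the one before. Of Pycard UMIs in the neutrophil gate, the 2 clusters compared held 9 and 16 of 73 in control and 42 and 75 of 363 in CD40. They held 10 and 6 of 61 in PD1 and 63 and 165 of 559 in combination, so most lay in other clusters. Yet the 2 clusters held most gated neutrophils, with 117 and 85 of 218 in control and 197 and 236 of 475 in CD40. In PD1 they held 81 and 82 of 183 and in combination 162 and 927 of 1158. The class level of Pycard thus rests mostly on a minority of the gated neutrophils. Combination over PD1 was 0.98 [0.00, 2.10] and 0.30 [-0.85, 1.77] in these 2 clusters, against -0.10 for the class. In classical monocytes the CD40 and combination libraries were higher by log2 ratios of 0.28 [0.22, 0.33] and 0.27 [0.22, 0.31], and PD1 and control stood level at -0.02 [-0.07, 0.03]. Pycard was also higher in 6 of 6 classical monocyte clusters for CD40 against control, by 0.19 to 0.65, and in 4 of 4 for combination against PD1, by 0.09 to 0.71. The macrophage marker list in the classical monocyte gate stood at 2105, 692, 1590.0 and 656 CPM, lower in both libraries given CD40 antibody. The neutrophil list there stood at 116, 239, 132 and 369 CPM, higher in both. The part of these markers in the classical monocyte ratios was not tested. Macrophages went the other way, with -0.09 [-0.12, -0.06] and -0.22 [-0.25, -0.18]. No Pycard ratio in the 4 classes passed 1.5-fold in the 3 comparisons counted. Combination against CD40 did pass it in neutrophils, at -0.71 [-0.90, -0.51]. Relative to the median of all genes, that ratio was -0.21. Gm45205 overlaps Pycard on the other strand.

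**Figure D2:**
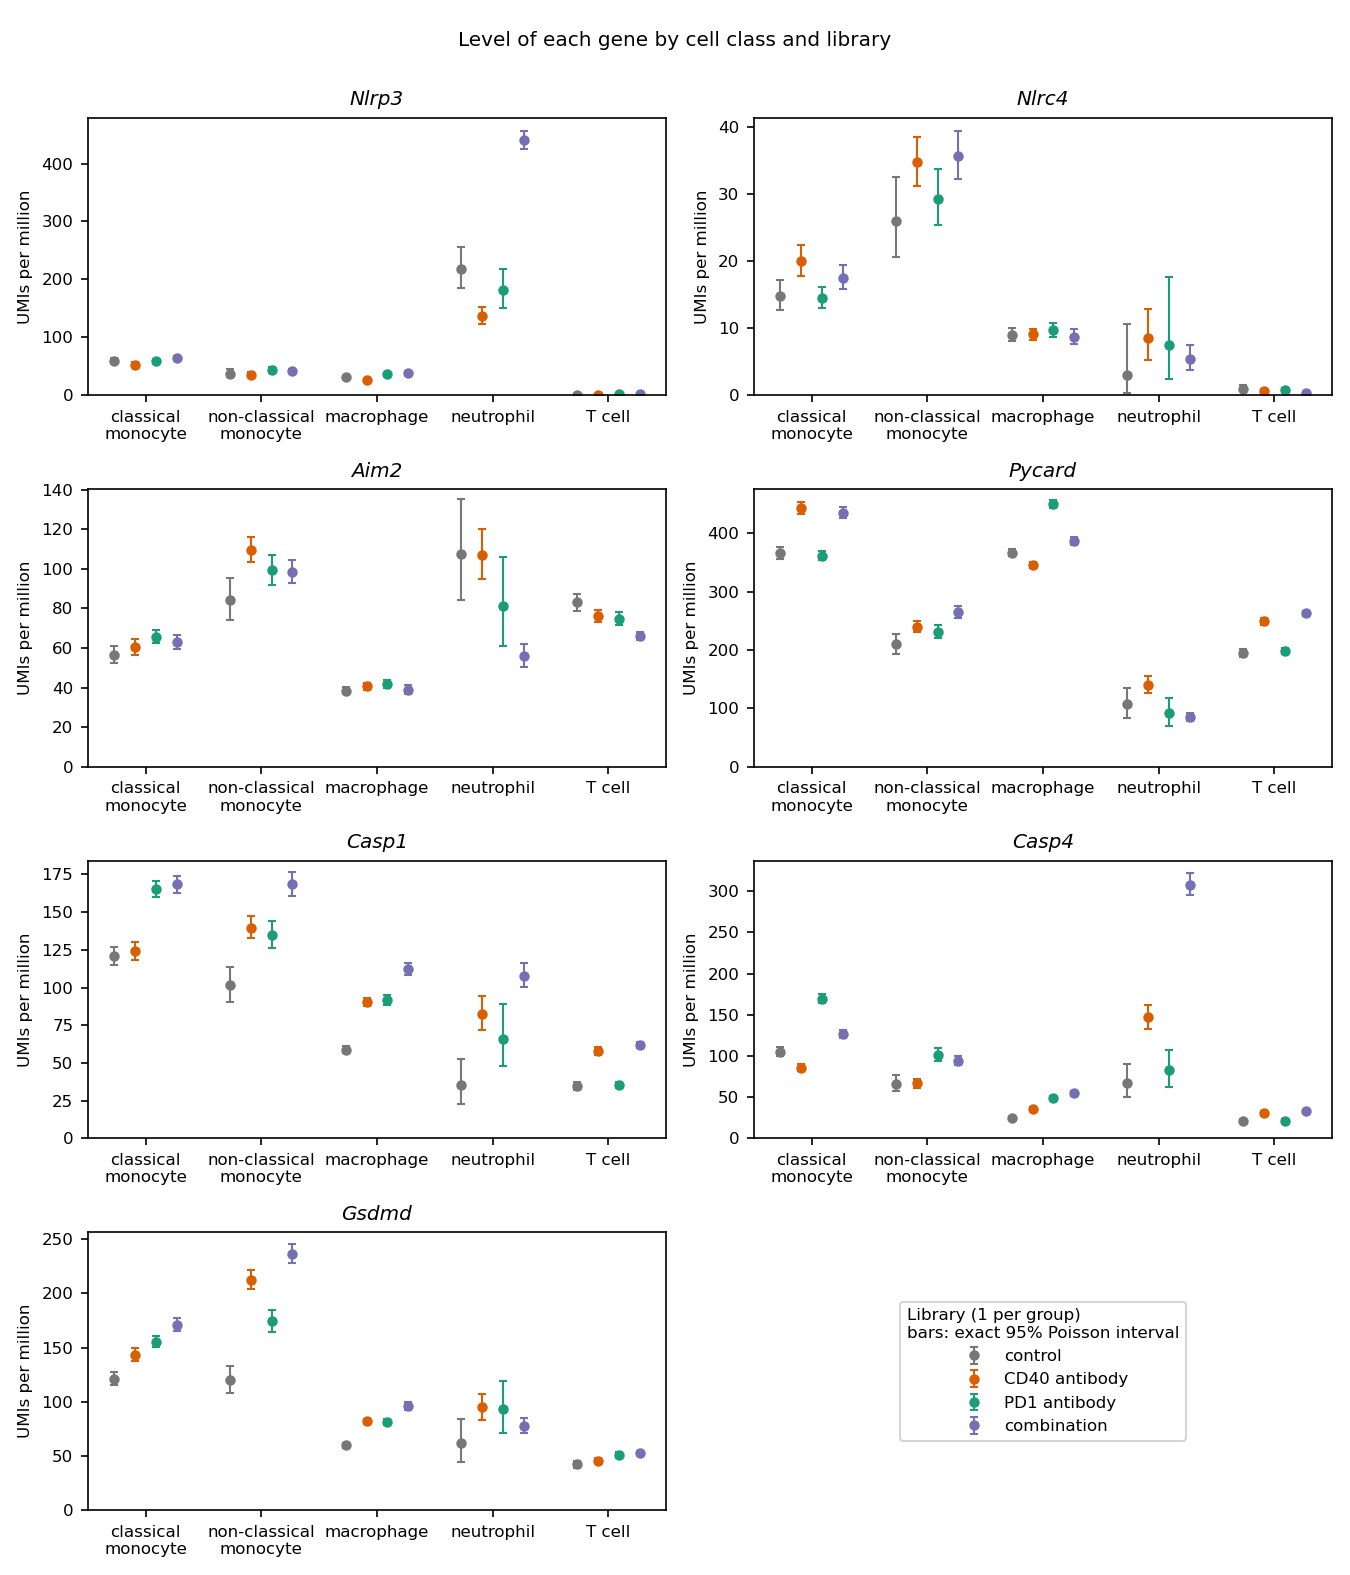
Level of each gene (CPM, y axis) in 4 myeloid classes and T cells (x axis) for the 4 libraries, with points at the class sum and bars for the exact 95% Poisson interval. Nlrp3 and Casp4 stand out in neutrophils of the combination library at 440.4 and 308 CPM.

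The caspase genes Casp1 (chr9:5298517-5307265) and Casp4 (chr9:5308828-5336783) lie on the plus strand of chromosome 9 with 1562 bases and no annotated gene between them. Because they are neighbours and differed in the same direction in neutrophils, the 250 bases before their RefSeq starts are shown (GRCm38.p6, plus strand), chr9:5298267-5298516 for Casp1 and chr9:5308599-5308848 for the first of 2 Casp4 starts. The last bases of the Casp4 stretch lie inside its GENCODE first exon. Capitals mark matches on either strand to a pattern for NF-kappaB, GGG, any 5 bases and CC.
Casp1: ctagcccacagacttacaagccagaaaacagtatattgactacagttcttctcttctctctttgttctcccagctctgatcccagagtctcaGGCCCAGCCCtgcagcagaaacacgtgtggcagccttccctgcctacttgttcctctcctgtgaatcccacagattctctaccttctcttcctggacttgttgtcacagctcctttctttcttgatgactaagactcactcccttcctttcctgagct
Casp4: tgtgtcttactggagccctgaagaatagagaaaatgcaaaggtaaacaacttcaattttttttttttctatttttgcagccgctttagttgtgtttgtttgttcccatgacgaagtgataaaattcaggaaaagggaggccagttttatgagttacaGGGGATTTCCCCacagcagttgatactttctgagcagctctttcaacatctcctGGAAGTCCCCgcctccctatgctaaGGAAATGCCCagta
The pattern matched at 1 place in the Casp1 stretch. It matched 5 times in the Casp4 stretch, where 3 matches overlap one another within the first run of capitals. It is a loose pattern, present in 45.8% of all 32851 RefSeq promoters of this length. Patterns for 5 other factors were searched in the same way on both strands, and none matched either stretch. They were TTCNNNGAA (GAS), in 7.02% of promoters, GAAA, any 2 bases and GAAA (ISRE core), in 2.98%, TGANTCA (AP-1), in 6.75%, TTGCNNAA (CEBP), in 9.56%, and GAGGAAG (PU.1), in 10.6%. Promoters were found for 6 of the 7 genes, and none of the 8 held GAS, ISRE core or AP-1. The PU.1 pattern matched in Nlrp3, Aim2 and Pycard, the CEBP pattern in Pycard and Nlrc4, and the NF-kappaB pattern at 1 of 2 Nlrp3 starts. A match is a string of letters, and no factor's binding was measured.

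Casp1 stood at 121, 124, 165 and 169 CPM in classical monocytes, 101, 139.8, 135 and 169 CPM in non-classical monocytes, 58.9, 90.4, 91.8 and 112 CPM in macrophages and 35.4 [22.7, 52.7], 82.7 [72.0, 94.5], 66.2 [48.1, 88.9] and 108 [100.2, 116] CPM in neutrophils. In all 4 classes the control value was the lowest and the combination value the highest, though in classical monocytes the intervals of control and CD40, and of PD1 and combination, overlapped. In neutrophils the log2 ratio of CD40 to control was 1.22 [0.61, 1.90], from 215 against 24 UMIs, and that of combination to PD1 was 0.71 [0.27, 1.18]. Both passed 1.5-fold. PD1 against control in neutrophils also passed it at 0.90 [0.16, 1.69], on 44 and 24 UMIs. In the 1 neutrophil cluster compared for Casp1 it was 0.28 [-1.21, 1.82], on 10 and 8 UMIs. A second neutrophil cluster held 2 and 0 UMIs, so most of the 44 and 24 lay outside both, in a minority of the gated neutrophils. In macrophages CD40 stood above control by 0.62 [0.55, 0.69] and PD1 above control by 0.64 [0.56, 0.72], while combination against PD1 gave 0.29 [0.22, 0.36]. The classical monocyte ratios for the CD40 antibody were 0.04 [-0.06, 0.14] and 0.03 [-0.04, 0.10], and PD1 stood above control by 0.45 [0.37, 0.54]. With classes taken from clusters, the neutrophil ratio of combination to PD1 became 0.52 and the macrophage ratio of CD40 to control 0.47, both within 1.5-fold. The macrophage ratio was also within it, at 0.58, in cells with no T, NK, B or melanoma marker UMI.

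Casp4 in neutrophils stood at 67.8 [49.7, 90.5], 147 [133, 162], 82.8 [62.4, 108] and 308 [295, 322] CPM. The 2 libraries given CD40 antibody were above both without it, and the combination library was the highest. The log2 ratio of CD40 to control was 1.12 [0.67, 1.59] and that of combination to PD1 was 1.90 [1.51, 2.31], a 3.72-fold [2.85, 4.96] higher level. After thinning, 4.37%, 15.7%, 6.18% and 27.0% of neutrophils had a Casp4 UMI, against 2.20% to 3.26% of T cells, and the unthinned neutrophil shares were 13.8%, 42.5%, 18.0% and 65.6%.

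Classical monocytes showed a different order for Casp4, with 105, 85.8, 169 and 127 CPM. The libraries given CD40 antibody were below their partners, by log2 ratios of -0.30 [-0.41, -0.18] and -0.42 [-0.49, -0.34], and PD1 was above control by 0.69 [0.59, 0.78]. The macrophage and neutrophil marker lists in this gate also differed between these libraries, as given beside Pycard, and their part was not tested. The direction of the CD40 antibody ratios was not shared by the clusters of this class. Casp4 was higher in 3 and lower in 3 of 6 clusters for CD40 against control, from -0.77 to 0.16 with a median of -0.19. It was higher in 2 and lower in 2 of 4 for combination against PD1, from -0.45 to 0.18 with a median of -0.04. The mixture of clusters differed as well, with 85 combination against 548 PD1 cells in the cluster with the lowest of these 4 ratios. In non-classical monocytes, at 66.6, 66.6, 102 and 94.4 CPM, the CD40 ratios were 0.00 [-0.23, 0.24] and -0.11 [-0.25, 0.04], with PD1 over control at 0.61 [0.38, 0.85]. In macrophages, at 24.3, 36.0, 48.7 and 54.6 CPM, PD1 was 2.00-fold [1.85, 2.17] above control. The CD40 ratio there was 0.56 [0.45, 0.68], just inside 1.5-fold, and the combination ratio 0.17 [0.07, 0.27]. With classes taken from clusters, PD1 over control was 0.41 in classical and 0.19 in non-classical monocytes, both within 1.5-fold, and with equal weight per cell the latter was 0.51.

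The pore gene Gsdmd (chr15:75862327-75867408, plus strand) was highest in non-classical monocytes of 3 libraries and level with classical monocytes in the control, at 120.3 [108, 133], 213 [204, 222], 174 [165, 185] and 237 [228, 246] CPM. Control was the lowest library and combination the highest. CD40 stood above control by a log2 ratio of 0.82 [0.66, 0.99], past 1.5-fold, and combination above PD1 by 0.44 [0.34, 0.54], within it. PD1 stood above control by 0.54 [0.36, 0.71]. The level of the macrophage marker list in this gate was 2031, 272, 1653 and 271 CPM, lower in both libraries given CD40 antibody, and its part in the Gsdmd difference was not tested.

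Classical monocytes held 121, 143, 156 and 171 CPM of Gsdmd and macrophages 59.8, 82.0, 81.2 and 95.8 CPM, with the control library lowest and the combination library highest in both. Mature dendritic cells, which had the lowest mean level of Aim2, Pycard and Casp1 among 12 classes, held 111 CPM of Gsdmd in the control and 155 CPM in the PD1 library. Neutrophils held 61.9 [44.6, 83.7], 95.01 [83.5, 108], 93.3 [71.6, 119.6] and 77.6 [71.0, 84.6] CPM. CD40 and PD1 each stood above control there, by 0.62 [0.14, 1.13] and 0.59 [0.00, 1.19]. With equal weight per cell these became 0.25 and 0.06, within 1.5-fold, as they also did in cells without T, NK, B or melanoma marker UMIs (0.41 and 0.49) and without Il1a (0.52 and 0.58), and the second with a 5% mitochondrial limit (0.52). In contrast, combination and PD1 did not differ beyond counting error at -0.27 [-0.65, 0.14]. In the 2 neutrophil clusters compared, CD40 over control for Gsdmd was -0.13 [-0.89, 0.70] and 2.32 [0.71, 4.64], the second on 66 and 3 UMIs. PD1 over control was 0.10 [-0.87, 1.08] and 1.61 [-0.45, 4.16], the second on 8 and 3 UMIs. Combination over PD1 was -0.26 [-1.01, 0.53] and 0.42 [-0.58, 1.65].

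**Figure D3:**
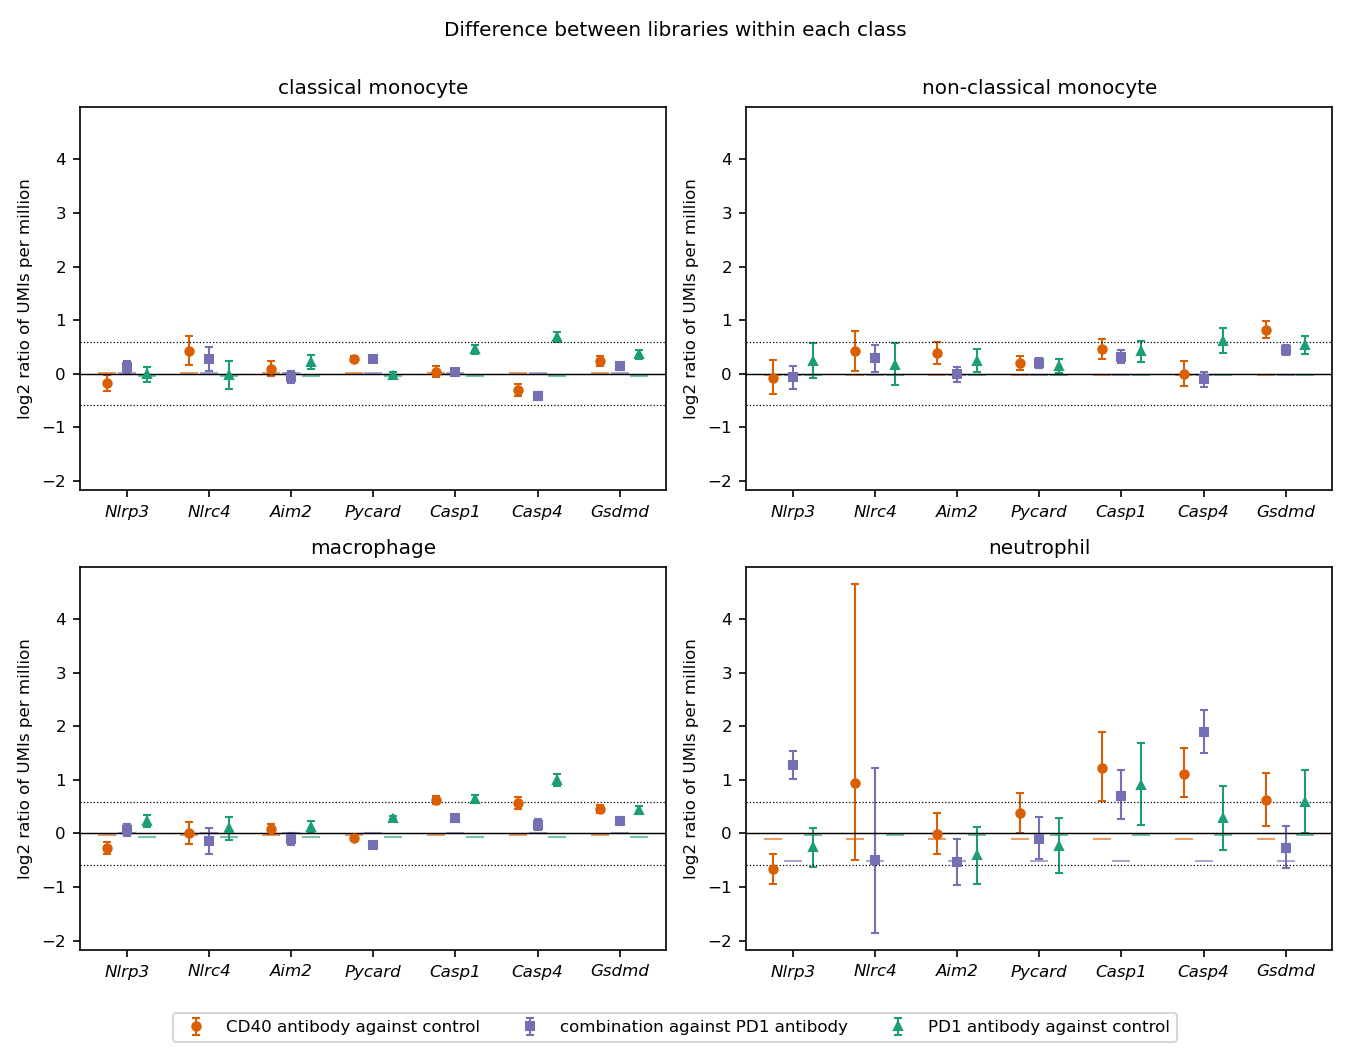
Log2 ratio of CPM (y axis) for each gene (x axis) in 4 classes (panels) for CD40 against control, combination against PD1 and PD1 against control, with exact 95% intervals as bars. Dotted lines mark 1.5-fold and short dashes the median of all genes with at least 10 UMIs, and genes without a finite interval or under 10 UMIs are not drawn. Neutrophil Casp4 and Casp1 lie above 1.5-fold in both CD40 antibody comparisons.

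The members were then counted past 1.5-fold and set beside the share of all genes past it, among genes with at least 10 UMIs over both libraries. All 7 were counted except in neutrophils for PD1 against control, where Nlrc4 had too few UMIs and 6 were counted. CD40 against control and PD1 against control share the control library, so they are not independent. In classical monocytes no member was past 1.5-fold for CD40 against control, where 7.92% of genes were higher and 8.45% lower. None was for combination against PD1 either, where 7.49% were higher and 9.42% lower. For PD1 against control, 1 member (Casp4) was higher and 0 lower, beside 7.03% and 8.34% of genes. Over the 3 comparisons in this order the median log2 ratio of the members was 0.09, 0.13 and 0.22, and that of all genes 0.01, 0.01 and -0.04.

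In non-classical monocytes 1 member (Gsdmd) was higher and 0 lower for CD40 against control, beside 9.16% and 11.8% of genes. For combination against PD1, 0 were higher and 0 lower, beside 8.39% and 9.46%. PD1 against control had 1 higher (Casp4) and 0 lower, beside 7.37% and 8.73%. The medians were 0.38, 0.20 and 0.24 for the members and -0.03, -0.02 and -0.02 for all genes. In macrophages CD40 against control had 1 higher (Casp1) and 0 lower, beside 8.95% and 10.1% of genes. Combination against PD1 had 0 and 0, beside 8.79% and 8.42%, and PD1 against control had 2 higher (Casp1 and Casp4) and 0 lower, beside 6.62% and 9.4%. The medians were 0.08, 0.06 and 0.29 for the members and -0.04, 0.01 and -0.06 for all genes. In these 3 classes the counts are small numbers of 7, and a single member is near the background share.

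Neutrophils had more members past 1.5-fold. For CD40 against control, 4 were higher (Casp1, Casp4, Gsdmd and Nlrc4) and 1 lower (Nlrp3), beside 10.6% and 19.5% of genes. The Nlrc4 count rests on 2 control UMIs, set to 3, and its interval of -0.50 to 4.65 includes 0, and with equal weight per cell it was 0.02. For combination against PD1, 3 were higher (Casp4, Nlrp3 and Casp1) and 0 lower, beside 6.37% and 46.2% of genes. PD1 against control had 2 higher (Casp1 and Gsdmd) and 0 lower, beside 14% and 14.8%. Members past 1.5-fold in the same direction in both CD40 antibody comparisons were Casp1 and Casp4, both higher, in neutrophils, or 2 of 7 beside 2.58% of all genes higher and 11.6% lower in both. In the other 3 classes there were none. The shares of all genes higher and lower in both were 2.53% and 3.53% in classical monocytes, 2.89% and 4.06% in non-classical monocytes and 3.79% and 3.93% in macrophages.

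Neutrophil sums differed widely in size, with 678297, 2599649, 664359 and 6537163 UMIs. The median log2 ratio of all genes was -0.10 for CD40 against control and -0.52 for combination against PD1, while that of the members was 0.62 and -0.10. Relative to those medians, combination over PD1 became 2.41 for Casp4, 1.79 for Nlrp3 and 1.22 for Casp1. The signs of Pycard and Gsdmd flipped, from -0.10 and -0.27 to 0.41 and 0.25. CD40 over control became 1.22 for Casp4 and 1.33 for Casp1, and Nlrp3, at -0.57, was no longer past 1.5-fold. On this scale 13.3% of genes were past 1.5-fold higher and 15.8% lower for CD40 against control, and 16.7% and 20.6% for combination against PD1. The macrophage marker list stood at 668, 302, 945 and 137 CPM in the neutrophil gate, T cell markers at 35.4, 26.9, 76.8 and 39.8 CPM, and basophil and mast cell markers at 0. The part of these differences and of depth in the neutrophil ratios was not tested.

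Neutrophils were compared cluster by cluster in the same way. Casp4 was higher in 2 of 2 clusters for CD40 against control, by 1.34 and 2.52, and in 2 of 2 for combination against PD1, by 2.28 and 2.50. Casp1 was also higher in 2 of 2 for each, by 1.17 and 2.28 and by 1.55 and 2.70. These Casp1 ratios rest on few UMIs in the lower libraries. The 2.28 sets 64 CD40 UMIs against 0 control UMIs and the 2.70 sets 436 combination UMIs against 2 PD1 UMIs, both set to 3, with intervals from 1.94 upwards and from 1.42 to 6.34. The Casp4 ratio of 2.52 rests on 5 control UMIs. Nlrp3 was lower in 2 of 2 clusters for CD40 against control, by -1.26 and -0.21. For combination against PD1 it was -0.44 in one cluster and 0.78 in the other. The Nlrp3 ratio of the whole class, 1.27, was thus above that of either cluster, and the Casp1 ratio, 0.71, below both. The 2 clusters held 81 and 82 of the 183 PD1 neutrophils and 162 and 927 of the 1158 in the combination library, so their mixture differed, and some gated cells lay in other clusters. In non-classical monocytes Gsdmd was higher in the 1 cluster available for CD40 against control, by 0.69, and in 3 of 3 for combination against PD1, by 0.18 to 0.38. That 1 cluster held only 181 of the 887 CD40 and 153 of the 330 control cells of the class. Macrophage Casp4 was higher in 4 of 4 clusters for PD1 against control, by 0.47 to 1.09. It was higher in 2 and lower in 2 of 4 in each CD40 antibody comparison. The ratios ran from -0.35 to 0.81 for CD40 against control and from -0.23 to 0.60 for combination against PD1.

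Nlrp3 in combination neutrophils ran with Il1a, the gene of interleukin-1 alpha, a cytokine released from damaged cells. An Il1a UMI was present in 4.13%, 9.05%, 4.92% and 49.0% of neutrophils, against 0.236%, 0.225%, 0.0497% and 1.04% of T cells at the depths given beside Nlrp3. After thinning, the shares were 0.485%, 2.12%, 1.69% and 32.6% of neutrophils and 0% to 0.197% of T cells. The split by Il1a was chosen after its values were seen. In the combination library the 567 cells with an Il1a UMI held 613 [587, 639] CPM of Nlrp3 and the 591 without held 249 [231, 267] CPM. Casp4 stood at 367 [347, 388] and 242 [225, 260.2] CPM. Casp1 and Gsdmd were lower in cells with Il1a, at 98.1 [87.9, 109] against 119 [107, 132] CPM and 65.6 [57.3, 74.7] against 90.9 [80.6, 102] CPM. Cells with an Il1a UMI also had more UMIs, a median of 5101 against 4017, and the part of depth was not tested. The control and PD1 libraries held only 9 such cells each. In the control Nlrp3 was lower with Il1a, at 71.9 [23.3, 168] against 235 [198, 277] CPM, on 5 UMIs. In PD1 it was higher, at 441 [279, 661] against 160 [130, 195] CPM, on 23 UMIs. The CD40 library held 43. There Nlrp3 was also higher with Il1a, at 206 [159.5, 262] against 128 [113, 143] CPM. Casp4 had the other order, at 119 [84.1, 163] with and 151 [135, 168] CPM without Il1a, with intervals that overlapped.

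Restricted to neutrophils without an Il1a UMI, combination over PD1 was 0.64 for Nlrp3, 1.69 for Casp4 and 0.86 for Casp1. The Nlrp3 ratio was thus smaller than in all neutrophils but still past 1.5-fold. Il1b, the gene of the main caspase-1 substrate, accompanied Nlrp3 within single neutrophils. In cells thinned to 1000 UMIs, 82.9%, 85.5%, 80.7% and 93.1% of neutrophils with an Nlrp3 UMI also had an Il1b UMI, against 61.2%, 58.1%, 55.8% and 73.5% of those without. The direction was the same in all 4 libraries, and it was not particular to neutrophils. In classical monocytes the shares were 29.6%, 18.4%, 31.7% and 37.3% with Nlrp3, against 18.8%, 12.8%, 22.2% and 21.5% without. In macrophages they were 22.2%, 9.52%, 17.0% and 12.5% against 4.96%, 2.66%, 8.7% and 5.75%, on 10, 4, 8 and 3 cells with both. Non-classical monocytes had equal shares of 26.7% in the control and the same direction elsewhere.

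**Figure D4:**
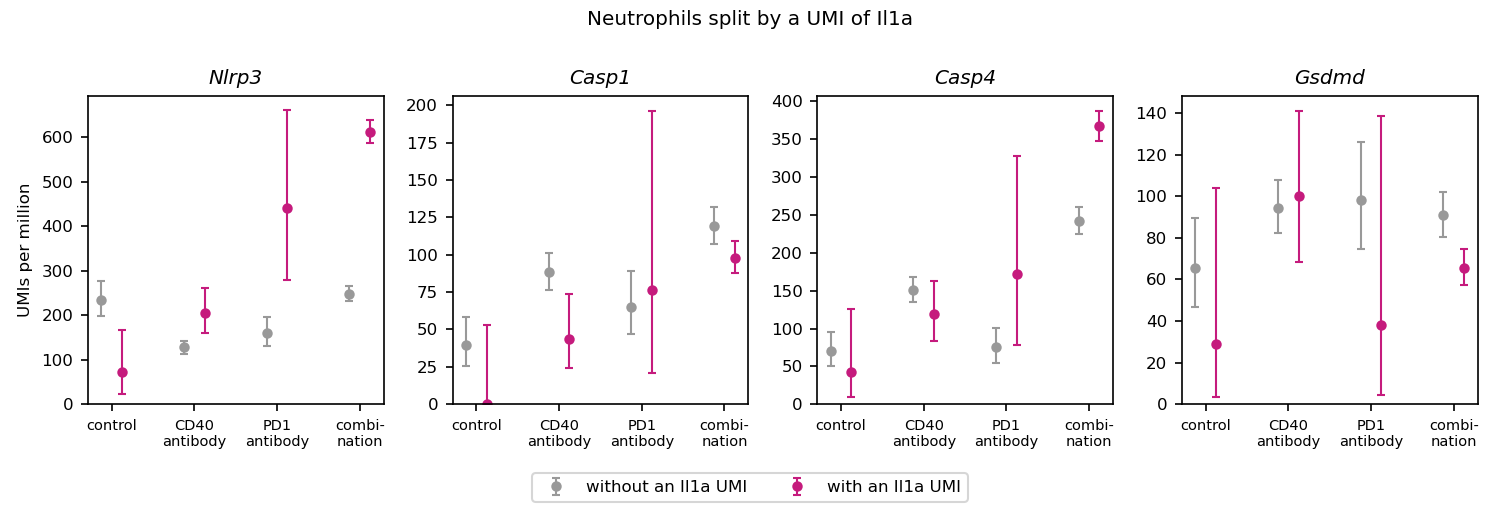
Levels of Nlrp3, Casp1, Casp4 and Gsdmd (CPM, y axis) in neutrophils with and without an Il1a UMI in each library (x axis), with exact 95% Poisson intervals as bars. In the combination library Nlrp3 is 613 CPM with and 249 CPM without an Il1a UMI, and the control and PD1 points with Il1a rest on 9 cells each.

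Around the members, 35 further genes of the pathway in 7 lists were counted, and those past 1.5-fold in the same direction in both CD40 antibody comparisons are named. Neutrophils had 4 higher and 5 lower of 29 counted in both, beside 2.58% and 11.6% of all genes. Higher were the nucleic acid sensor Zbp1 (124, 414, 279 and 527 CPM), the cytokine gene Il1a (19.2, 76.6, 28.6 and 1450.0 CPM), the interleukin-18 inhibitor Il18bp (28.0, 112, 37.6 and 183 CPM) and the interferon-induced transcription factor Irf1 (227, 567, 393 and 1035 CPM). Lower were the sensor Nlrp12 (95.8, 53.5, 72.3 and 29.98 CPM), the NLRC4 partners Naip2 (66.3, 43.9, 57.2 and 33.04 CPM) and Naip6 (10.3, 6.54, 9.03 and 5.66 CPM), the gasdermin Gsdme (63.4, 33.1, 55.7 and 13.2 CPM) and the ATP receptor P2rx7 (30.96, 7.31, 12.04 and 3.06 CPM). By list, cytokine brakes had 2 of 3 genes higher and 0 lower in each CD40 antibody comparison. Upstream triggers and partners had 1 higher and 1 lower of 4 for CD40 against control and 4 of 4 lower for combination against PD1. Other sensors had 2 higher and 3 lower of 9, then 1 higher and 6 lower of 9. The lower genes stand beside the high background share of lower genes in these sums. Relative to the median of all genes, Naip2 and Naip6 were within 1.5-fold in both comparisons, at -0.50 and -0.28 and at -0.56 and -0.16, and Naip6 rests on 7, 17, 6 and 37 UMIs. Il1b itself was 1.62 higher on the log2 scale for combination against PD1, and was not past 1.5-fold for CD40 against control.

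The other classes had fewer such genes. Casp12, a caspase of the same family as Casp1 and Casp4, was higher in all 3, at 1.46, 6.17, 5.03 and 8.39 CPM in classical monocytes, 2.70, 4.36, 4.14 and 6.55 CPM in non-classical monocytes and 1.62, 4.65, 2.80 and 4.89 CPM in macrophages. It was the 1 gene of 30 counted in classical monocytes and of 31 in macrophages, beside 2.53% and 3.79% of all genes higher in both. Non-classical monocytes also had Il18bp higher (11.5, 45.6, 39.9 and 77.6 CPM) and P2rx7 (33.5, 18.8, 25.4 and 15.9 CPM) and the elastase inhibitor Serpinb1a (6.08, 2.62, 7.54 and 3.91 CPM) lower, so 2 were higher and 2 lower of 30 counted, beside 2.89% and 4.06% of all genes. The Casp12 control levels rest on 18, 8 and 62 UMIs.

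Likeness to each member was ranked over 27 sums of a class in a library with at least 50 cells, among 13634 genes. The points share libraries and depth, so the Spearman correlations are descriptions. Nlrp3 was closest to Id1 (0.97) and Tlr2 (0.97), Nlrc4 to Cybb (0.97), Aim2 to Nfatc1 (0.95) and Pycard to Snx2 (0.91). Casp1 was closest to Gbp3 (0.96), Casp4 to Slfn2 (0.96) and Gbp9 (0.94), and Gsdmd to Rras (0.92). Among the members themselves, the highest values were 0.82 for Nlrp3 with Casp4 and 0.77 for Casp1 with Nlrc4, and the lowest was -0.28 for Aim2 with Pycard.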

How the data were processed

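Per the labels' protocols, the sort of live CD45+ cells followed mashing, filtering and red cell lysis of the tumours, and 10x 5′ libraries were then made. Per the submitters' processing notes, the authors used Cell Ranger 7.0.0 on GRCm38. The deposited matrices hold UMI counts for each barcode, not normalized. No annotation release, intron counting or strand setting is given in the sources used here. The libraries held 117735875, 156970611, 149041709 and 164755549 UMIs in 8132, 8313, 10158 and 10091 barcodes.

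The cell filter asked for 300 genes or more and mitochondrial UMIs of 10% or less. Scrublet (scanpy 1.11.5) set automatic scores that marked 2, 0, 0 and 297 cells, so a score of 0.25 was used for all, which removed 111, 149, 257 and 239. A cell took a class from its own marker UMIs, and cells passing several gates (2.19% to 3.26%) were left out. Cells with general phagocyte markers and no gate (6.74% to 12.8%) entered no comparison between libraries. For example, neutrophils needed at least 20 UMIs of S100a8 and S100a9 per 10000 with further markers, and macrophages at least 10 of the C1q genes. Members, lists and rules were chosen with earlier results of these data known. The gates were adjusted after member levels under an earlier version were seen, and the doublet score, the floor rule, the Il1a split and the motifs beyond GAS and ISRE core were also chosen after values were seen.

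Class sums of UMIs were expressed as CPM, with exact Poisson intervals for levels, exact conditional binomial intervals for ratios and exact Clopper-Pearson intervals for shares. A count under 3 on the lower side of a ratio was set to 3, and intervals used the counts themselves. No test was run, because each group is 1 library. The 7 members are named throughout, other pathway genes only when past 1.5-fold the same way in both CD40 antibody comparisons (Il1b is named besides), and the likest genes by rank among those with at least 100 UMIs. Clusters came from 2000 variable genes, 30 components and 15 neighbours (Leiden method of igraph 0.11.9, resolution 1.5). The ratio step was tested on simulated data. Intervals came from scipy 1.17.1, tables from pandas 2.3.3 and numpy 2.4.6, and figures from matplotlib 3.10.9, under Python 3.11.15. Alternatives changed the class definition, doublets, scaling, cell weight, mitochondrial limit, gate strictness, UMI minimum and fold.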

Additional observations from a re-analysis of the deposited data

Results flagged for a closer look

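Each of these differences was not tested, because every group is 1 library. In neutrophils the log2 ratio of Nlrp3 was 1.27 for combination against PD1 and -0.67 for CD40 against control, opposite directions for the same antibody that lie 1.94 apart. In one neutrophil cluster both ratios were lower, at -0.44 for combination against PD1 and -1.26 for CD40 against control. In the other they were 0.78 [0.43, 1.14] and -0.21 [-0.68, 0.29], and the second interval included 0. The mixture of these clusters differed between libraries. Casp4 differed in opposite directions in neutrophils and classical monocytes. For CD40 against control the ratios were 1.12 and -0.30, a difference of 1.41, and for combination against PD1 they were 1.90 and -0.42, a difference of 2.31. Within clusters of classical monocytes the lower direction was not shared, with 3 of 6 lower for CD40 against control and 2 of 4 lower for combination against PD1, and the libraries' cells were spread over the clusters in different proportions. Outside the myeloid gates, Pycard in NK cells was higher by 1.04 for CD40 against control and by 0.73 for combination against PD1. Casp1 in T cells was higher by 0.74 and 0.81 in the same comparisons.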

How the results depend on the processing

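Of 222 counts recomputed, 200 stayed within 1.5 times and 22 moved. Keeping predicted doublets, dropping the UMI minimum and asking for at least 5 CPM moved 0 counts. At 2-fold, members higher became 0 in 5 cases (classical monocytes PD1 against control, from 1, non-classical monocytes CD40 against control and PD1 against control, from 1 each, macrophages CD40 against control, from 1, and PD1 against control, from 2). In neutrophils at 2-fold, members higher went from 4 to 2 for CD40 against control and from 2 to 0 for PD1 against control, and members lower from 1 to 0. With classes from clusters, members higher for CD40 against control became 4 in non-classical monocytes (Gsdmd 0.77, Casp1 0.68, Nlrc4 0.65, Aim2 0.59) and 0 in macrophages, those for PD1 against control became 0 in both monocyte classes, and 1 was lower (Aim2, -0.61) in neutrophils for combination against PD1. With no T, NK, B or melanoma UMI allowed, macrophages had 0 higher for CD40 against control, and neutrophils 2 lower for combination against PD1 (Nlrc4 -0.90, Aim2 -0.67). With median-of-ratios scaling, macrophages had 2 higher and neutrophils 0 lower for CD40 against control. With equal weight per cell, 0 were higher in non-classical monocytes for PD1 against control, and in neutrophils 2 for CD40 against control and 1 for PD1 against control. The last count was also 1 with a 5% mitochondrial limit and in cells without Il1a, a setting chosen after seeing the data. The cause of these moves was not tested. Neutrophil Casp4 stayed past 1.5-fold under every alternative run on its ratio, at 1.09 to 1.53 for CD40 against control and 1.497 to 2.44 for combination against PD1. Of 916 recomputed log2 ratios, 805 stayed the same and 111 moved out of their interval or across 1.5-fold. Of 111 ratios under each setting, 44 moved with classes from clusters and 24 with no T, NK, B or melanoma UMI allowed. Changes of sign were looked for only in ratios past 1.5-fold, and none was found. Of 49 class orders, 46 kept their leading class. Aim2 was higher in neutrophils than in non-classical monocytes with classes from clusters (-0.17) and with median-of-ratios scaling (-0.26), and Casp4 higher in classical monocytes than in neutrophils with classes from clusters (-0.048). Of 112 shares of cells, 111 moved when cells were not thinned. No paired analysis was possible because each group is 1 library and no result comes from a test. Neutrophil values in the control and PD1 libraries rest on 218 and 183 shallow cells.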

Other observations

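Lymphocytes carried several members. Pycard in NK cells stood at 244, 502, 265 and 438 CPM, higher in both libraries given CD40 antibody, with log2 ratios of 1.04 [0.93, 1.16] and 0.73 [0.63, 0.82]. T cells held 195, 249, 198 and 263 CPM of Pycard. Casp1 was likewise higher in both libraries given CD40 antibody than in both without it, in T cells at 34.7, 58.1, 35.3 and 61.8 CPM and in NK cells at 52.5, 74.1, 47.6 and 78.8 CPM. Casp4 in T cells stood at 21.0, 30.8, 21.7 and 32.7 CPM. T cells of the CD40 and combination libraries were also deeper, with a median of 12102 and 12659.5 UMIs against 7104 and 9458, as were NK cells, with 11264.5 and 11125.5 UMIs against 5664 and 6205.5, and the part of depth was not tested.

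Nlrc4 was measurable in B cells, a class in which its level was well above that of T cells. It stood at 21.8, 20.7 and 25.2 CPM in the control, CD40 and PD1 libraries, which held 230, 50 and 139 B cells, and at most 0.931 CPM in T cells.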
